A study of Mus musculus with 10 samples.

Results

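Cytosolic ribosomal proteins are the protein components of the ribosome that translates messenger RNA outside mitochondria. The members were all probe sets annotated with a single gene symbol made of Rpl or Rps, a number and at most 1 of the letters a, x, y and l. They were 205 of the 35556 probe sets on the array and stood for 55 of 19938 genes, 34 of the large subunit (Rpl) and 21 of the small subunit (Rps). The rule reads symbols only and no signal enters it. The family itself, however, was selected on earlier results of these same arrays, the log2 differences between the 2 groups, so every count below is a description and gives no independent support.

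RNA from the heart ventricles of 10 mice was measured, with 1 Affymetrix mouse gene array per mouse and 5 mice per group. Per the labels, all 10 mice lack PGC-1α (gene Ppargc1a), a transcriptional coactivator known for raising genes of mitochondrial respiration. By their source names, the mice of both groups also carry a floxed form of Ppargc1b, which encodes the related coactivator PGC-1β, together with MerCre, a recombinase active only once tamoxifen is given. The titles name the vehicle group PGC-1a-/- and the tamoxifen group PGC-1a-/-bf/f/MerCre. Read by title alone, genotype and injection would thus both separate the groups. At 2 months of age, 1 group received tamoxifen in sunflower seed oil at 50 mg/kg per day on 2 days in a row and the other the oil alone, and tissue was taken at 3 months of age. The labels do not name the promoter that drives MerCre, and since both groups are labelled as lacking PGC-1α, no array is labelled as an unmodified heart. The arrays are called vehicle-labelled and tamoxifen-labelled, and a difference is always the tamoxifen-labelled mean minus the vehicle-labelled mean of log2 signals, with its standard error (SE) after ±.

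The ribosome joins a small subunit, which reads the messenger RNA, and a large subunit, which forms the peptide bond. Each ribosomal protein is needed in a fixed proportion, and the messages of most of them begin with a run of pyrimidines (C or T in the DNA), the 5′ terminal oligopyrimidine or TOP tract, through which mTOR signalling and the RNA-binding protein LARP1 set their translation and stability. Heart muscle also makes RPL3L, a paralogue of RPL3 restricted to striated muscle. The mouse genome holds many processed pseudogenes of ribosomal protein genes, and their near-identical copies can share array probes.

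The tissue check and the state of the targeted genes touch every result. All 7 ventricular cardiomyocyte markers (such as Myh6, Tnnt2 and Myl2) were bright, with an array mean of 14.01 to 14.04 on the log2 scale. Ppargc1b itself went against its label, at 9.76 ± 0.10 and 10.03 ± 0.101 (SD, n = 5 per group; vehicle-labelled and then tamoxifen-labelled), 0.27 higher with a limma adjusted p of 0.00528. The position of this probe set with respect to the floxed exons was not checked, and outside them it would check nothing. Ppargc1a, labelled as knocked out in all 10 mice, was bright in every array, at 10.81 ± 0.138 and 11.20 ± 0.232, and 0.39 higher in the tamoxifen-labelled arrays (limma adjusted p = 0.00813). The position of its probe set was not checked either, so the signals do not bear out the label of either gene. All directions therefore rest on the labels. Tamoxifen-labelled array 2 stood apart, with a mean over all tested genes of 8.74 against 8.6 to 8.64 in the other 9 arrays.

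Most ribosomal protein genes were slightly higher in the tamoxifen-labelled arrays. Of the 55 genes, 54 passed the filter on dim probe sets, and of these 32 rose at a limma adjusted p of 0.05 and 0 fell. Over all 13953 tested genes 13.6% were called higher and 8.28% lower, while among the ribosomal protein genes 59.3% were called higher. The fold change was small throughout, with a median log2 difference of 0.19 (1.14-fold) beside 0.014 over all tested genes, and 53 of 54 differences were above 0 against 54.8% of all genes. At an unadjusted p under 0.05, 1 gene was lower (Rpl36, described below). The share called higher over all genes was 11.6% without tamoxifen-labelled array 2, where 32 ribosomal protein genes were called higher, 30 of the same genes and 2 others.

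**Figure D1:**
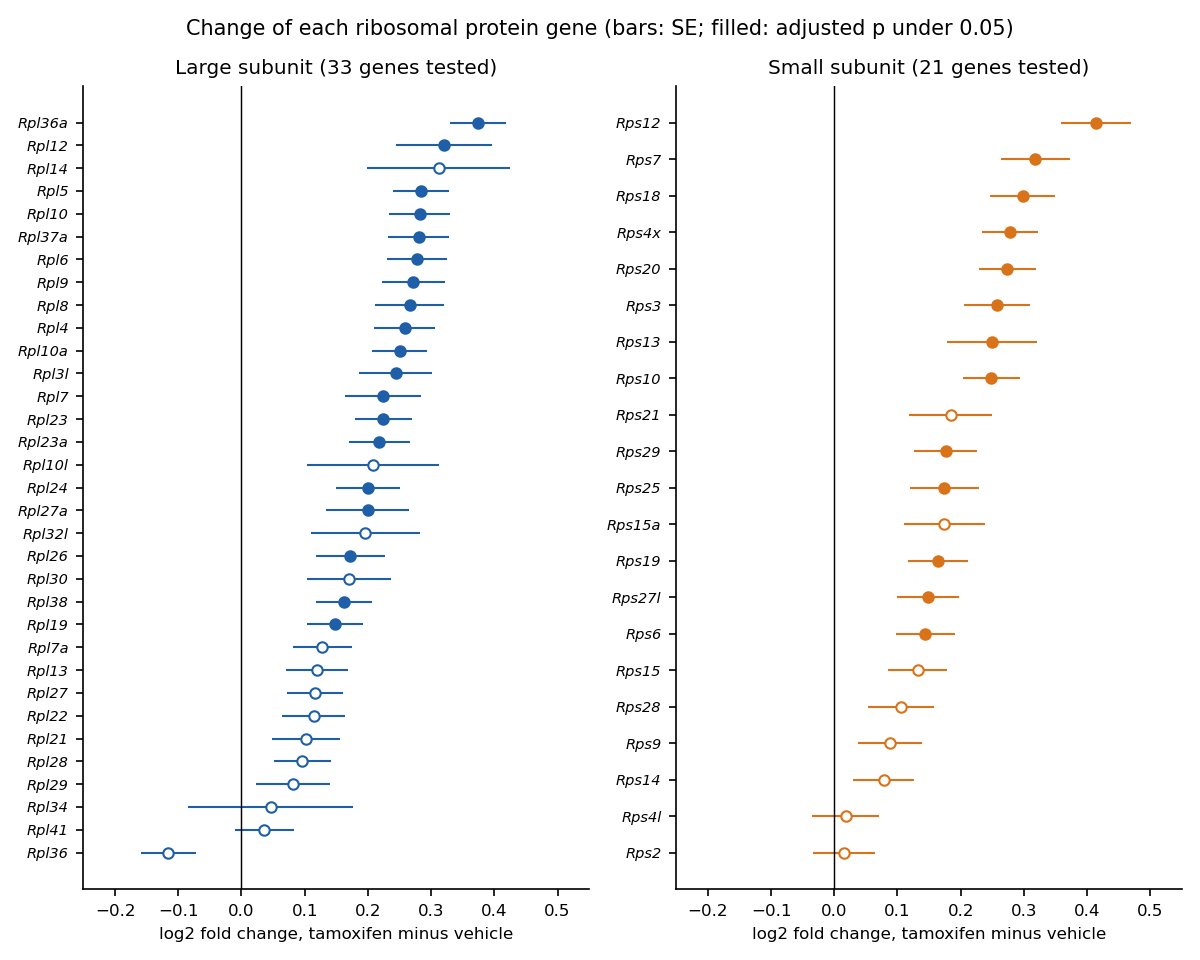
Log2 difference, tamoxifen-labelled minus vehicle-labelled (horizontal axis), of each of the 33 large subunit and 21 small subunit genes tested (rows), with bars for the SE and filled points for an adjusted p under 0.05. Of the 54 points 53 lie to the right of 0, from 0.016 for Rps2 to 0.41 for Rps12, and Rpl36 lies to the left.

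The promoters of the genes that carry these results were compared first, since a TOP tract is what most of the family is known to share. RefSeq start sites (build GRCm38.p6) matched 44 of the 55 genes, with 53 windows of 300 bases. A run of at least 8 bases that are each C or T, read on the gene's own strand from 10 bases before to 50 after the listed start, was present in 56.6% of the members' windows and in 21.2% of the 21263 windows of protein-coding genes. Large and small subunit windows held it in 59.4% and 52.4%. The stretches below run from 70 bases before to 30 after the listed start, 5′ to 3′ on the gene's strand, with such runs in capitals. They show 4 of the genes with the largest rises (Rps12, Rpl36a, Rps7 and Rps18), the brightest member (Rps6), a gene with almost no difference (Rps2) and the muscle paralogue (Rpl3l, the upstream of its 2 listed starts).
Rps12: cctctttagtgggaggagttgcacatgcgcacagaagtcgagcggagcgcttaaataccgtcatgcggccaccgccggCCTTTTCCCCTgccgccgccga
Rpl36a: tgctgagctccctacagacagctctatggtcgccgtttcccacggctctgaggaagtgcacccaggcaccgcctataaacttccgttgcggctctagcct
Rps7: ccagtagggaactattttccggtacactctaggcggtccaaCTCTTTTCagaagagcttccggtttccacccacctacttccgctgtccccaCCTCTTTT
Rps18: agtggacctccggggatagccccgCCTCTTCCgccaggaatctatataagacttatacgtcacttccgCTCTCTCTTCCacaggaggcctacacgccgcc
Rps6: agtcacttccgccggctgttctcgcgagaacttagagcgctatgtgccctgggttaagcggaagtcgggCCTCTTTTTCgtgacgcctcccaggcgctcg
Rps2: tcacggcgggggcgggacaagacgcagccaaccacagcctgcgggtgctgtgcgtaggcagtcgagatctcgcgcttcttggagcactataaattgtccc
Rpl3l: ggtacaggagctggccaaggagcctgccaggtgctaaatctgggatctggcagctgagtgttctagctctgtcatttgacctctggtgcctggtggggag

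These stretches lie at chr10:23787180-23787279 on the minus strand (Rps12), chrX:134585584-134585683 on the plus strand (Rpl36a), chr12:28635924-28636023 on the minus strand (Rps7), chr17:33955636-33955735 on the minus strand (Rps18), chr4:86857338-86857437 on the minus strand (Rps6), chr17:24719993-24720092 on the plus strand (Rps2) and chr17:24727756-24727855 on the plus strand (Rpl3l). Runs span the listed start of Rps6 and Rps18 and follow that of Rps12 and Rps7, while the printed Rpl36a, Rps2 and Rpl3l stretches show none of this length. Rpl36a and Rps2 still count as having a run, because theirs reaches or lies beyond the printed end, inside the searched 50 bases. Rpl3l counts too, but its 2 listed starts were searched together, so its run may belong to the start that is not printed. Genes with and without the run did not separate by their difference: 19 of 30 tested genes with it rose, with a median of 0.20, and 8 of 13 without it rose, with a median of 0.20. A run counted anywhere in the searched bases, and a shorter one at the start did not count. TOP tracts as such were therefore not compared. In the full 300 bases, on both strands, the ETS family core CCGGAAG was in 32.1% of the members' windows against 11.6% of protein-coding windows, the YY1 core ATGGCGGC in 9.43% against 3.02%, and the oestrogen-related receptor element TCAAGGTCA in 0 of 53 windows against 0.334%. Of the 15 tested genes with CCGGAAG 11 rose, with a median of 0.17. Of the 28 without it 16 rose, with a higher median of 0.23. A match says only that these letters are in the window.

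The 8 called genes with the largest rises came from both subunits. Rps12, a protein of the head of the small subunit, read 10.37, 10.56, 10.47, 10.39 and 10.49 in vehicle-labelled arrays 1 to 5 and 10.85, 10.99, 10.77, 10.84 and 10.90 in tamoxifen-labelled arrays 1 to 5. Every tamoxifen-labelled value lay above every vehicle-labelled one, a difference of 0.41 ± 0.0547 or 1.33-fold (limma adjusted p = 4.15e-05). Rpl36a, an X-linked protein of the large subunit, read 12.23, 12.24, 12.29, 12.21 and 12.24 against 12.62, 12.68, 12.59, 12.56 and 12.63. Its groups lay far apart for their spread, with a difference of 0.37 ± 0.0449 (adjusted p = 1.46e-05), the smallest p of the family.

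Rpl12, a protein at the base of the stalk that recruits elongation factors, was a dim member at 7.47, 7.67, 7.40, 7.59 and 7.69 against 7.84, 8.09, 7.72, 7.77 and 8.0. The groups were close together but did not overlap, and the difference was 0.32 ± 0.0761 (adjusted p = 0.00641). Rps7 read 11.74, 11.96, 11.88, 11.83 and 11.81 against 12.09, 12.28, 12.14, 12.19 and 12.11. All of the latter were higher, by 0.32 ± 0.0546 on average (adjusted p = 0.000517). Rps18 read 11.51, 11.63, 11.55, 11.52 and 11.60 against 11.82, 11.95, 11.77, 11.93 and 11.83, a difference of 0.30 ± 0.0509 (adjusted p = 0.000486), again without overlap.

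Rpl5 joins RPL11 and 5S ribosomal RNA in a particle that also binds MDM2, the regulator of p53. It read 11.73, 11.84, 11.80, 11.76 and 11.79 against 12.03, 12.10, 12.04, 12.08 and 12.09 without overlap, with a difference of 0.28 ± 0.0447 (adjusted p = 0.000234). Rpl10, which is added at a late step of large subunit maturation, was among the 4 brightest members at 13.52, 13.52, 13.47, 13.42 and 13.40 against 13.75, 13.84, 13.70, 13.71 and 13.74. Its groups did not overlap and differed by 0.28 ± 0.0484 (adjusted p = 0.000515). Rpl37a completed the 8, with 11.17, 11.31, 11.26, 11.19 and 11.28 against 11.47, 11.60, 11.50, 11.53 and 11.51 and a difference of 0.28 ± 0.0482 (adjusted p = 0.000526). Its groups did not overlap either. All 8 calls held under all 20 alternative fits.

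The large and small subunits moved alike in size. Among large subunit genes 19 of 33 rose (57.6%) with a median difference of 0.20, and among small subunit genes 13 of 21 rose (61.9%) with a median of 0.17. The mean signal over large subunit genes was 11.02 ± 0.0243 in the vehicle-labelled and 11.21 ± 0.0322 in the tamoxifen-labelled arrays (SD, n = 5). Over small subunit genes it was 11.17 ± 0.0417 and 11.36 ± 0.034. In both subunits the lowest tamoxifen-labelled array lay above the highest vehicle-labelled one, at 11.17 against 11.05 for the large and 11.33 against 11.21 for the small subunit. The large minus small mean was -0.15 ± 0.0225 and -0.15 ± 0.0176, a change of 0.002. No p is given for these means, because the family was chosen with results known.

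**Figure D2:**
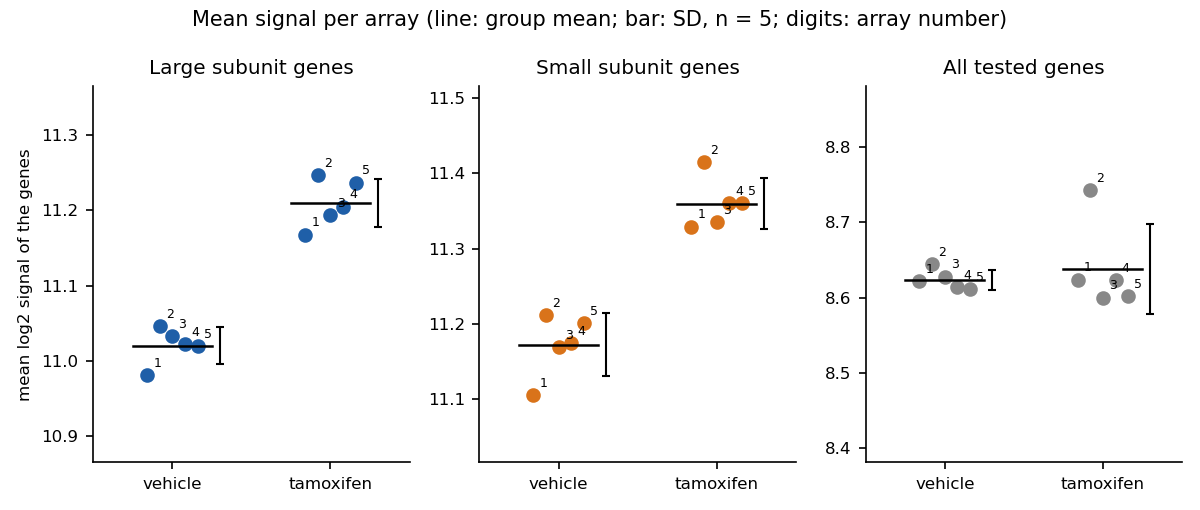
Mean log2 signal (vertical axis, the same span in each panel) over the 33 large subunit genes, the 21 small subunit genes and all 13953 tested genes, by array (points, numbered) and group, with the group mean as a line and the SD as a bar (n = 5). The 5 tamoxifen-labelled arrays lie above the 5 vehicle-labelled ones in both subunits, and array 2 alone stands apart over all genes.

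The rise was spread over all 5 tamoxifen-labelled arrays. Of the 54 genes, 50, 48, 51, 51 and 51 lay above their own vehicle-labelled mean in tamoxifen-labelled arrays 1 to 5, with a median excess of 0.14, 0.27, 0.16, 0.20 and 0.22. Array 2 had both the highest median excess and the widest spread, from -0.43 to 0.65. Among the vehicle-labelled arrays, array 1 was the lowest, with 11 of 54 genes above the vehicle-labelled mean against 25 to 38 in arrays 2 to 5. In 33 genes all 5 tamoxifen-labelled values exceeded all 5 vehicle-labelled ones, a share of 61.1% against 10.5% of all tested genes. The split was 20 of 33 large and 13 of 21 small subunit genes, and in 1 gene (Rpl36) all 5 lay below, against 6.12% of all tested genes. Without tamoxifen-labelled array 2 the median difference over the 54 genes was 0.17 and that over all genes -0.012. Without vehicle-labelled array 1 these medians were 0.17 and 0.015. In that fit 26 genes were called higher, 25 of them among the 32 of the main fit.

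**Figure D3:**
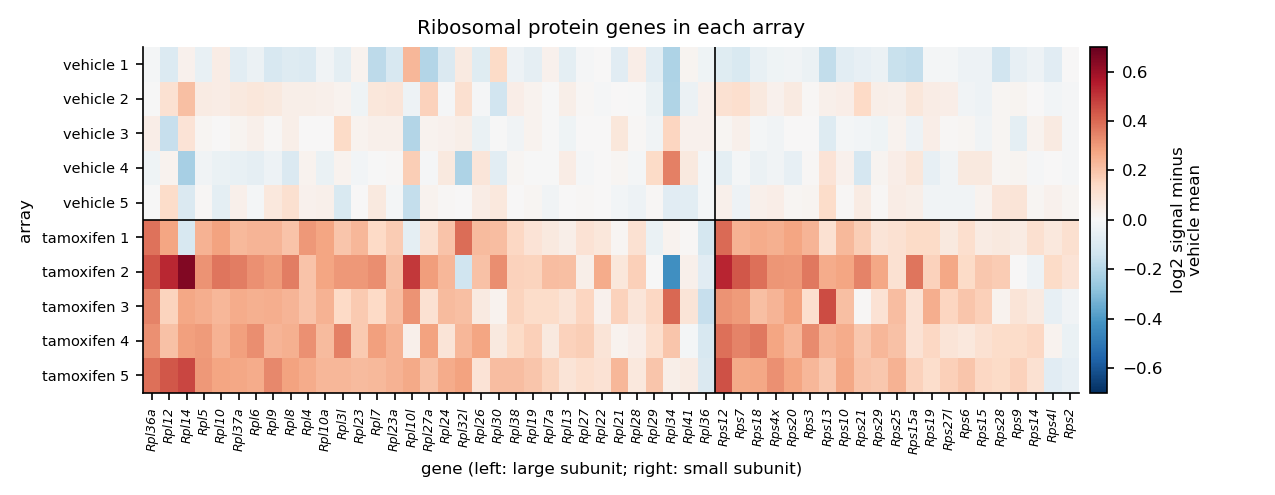
Log2 signal minus the vehicle-labelled mean of the gene (colour) in each of the 10 arrays (rows) for the 54 tested genes (columns, large subunit left, small subunit right, each ordered by difference). The tamoxifen-labelled rows are red for most genes, and array 2 holds both the highest value (0.65, Rpl14) and the lowest (-0.43, Rpl34).

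Ribosomal proteins that are also known from signalling or inherited disease were found among the called and the uncalled genes. Rps6, the target of S6 kinase, was the brightest member and read 13.60, 13.61, 13.65, 13.70 and 13.61 against 13.75, 13.77, 13.83, 13.71 and 13.83. The groups were adjacent without overlap, with a difference of 0.14 ± 0.0466 (adjusted p = 0.0364). That call was lost without vehicle-labelled array 1, 2, 3 or 5 or tamoxifen-labelled array 1, 3 or 5 (adjusted p 0.0574 to 0.0853, and 0.000731 to 0.0853 over all alternatives). Rps19, mutated in Diamond-Blackfan anaemia, rose by 0.16 ± 0.0472 (adjusted p = 0.0200), and Rpl38, studied for its part in translating Hox messages, rose by 0.16 ± 0.0439 (adjusted p = 0.0145). Rps14, a small subunit gene lost in the 5q- syndrome, was not called on its brightest probe set, at 0.078 ± 0.0476. Its other probe set was called higher, at 0.24 (adjusted p = 0.0392 in the limma fit over probe sets). These 3 genes were chosen after their values were seen. Rps19 and 8 more of the 32 called genes lost their call when some single array was left out (Rps13, Rpl27a, Rps29, Rps25, Rpl26, Rpl19, Rps27l and Rps6, all with differences of 0.25 or less), while 23 kept it without each array in turn.

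Paralogues in the family, some of them with a restricted expression pattern and 1 listed as a pseudogene, showed no common behaviour. Rpl3l, the striated muscle paralogue of RPL3, read 10.19, 10.28, 10.39, 10.28 and 10.15 against 10.45, 10.56, 10.40, 10.61 and 10.49. The lowest tamoxifen-labelled value was just above the highest vehicle-labelled one, and the difference was 0.24 ± 0.0575 (adjusted p = 0.00608). Rps27l, a paralogue of RPS27 known as a p53 target, rose by 0.15 ± 0.0494 (adjusted p = 0.0419). Rpl10l, a retrogene of Rpl10 known from testis, was the dimmest tested member at 7.18, 6.91, 6.74, 7.12 and 6.78 against 6.88, 7.44, 7.26, 6.98 and 7.21. These groups overlapped and the difference of 0.21 ± 0.104 was not called (adjusted p = 0.171), whereas Rpl10 was called at 0.28. Rpl39l, also known from testis, lay below the brightness cutoff of 6.53 with values from 4.27 to 4.85 and was not tested. Rps4l, which RefSeq lists as a transcribed pseudogene, differed by 0.018 ± 0.0528, while Rps4x rose by 0.28 ± 0.0445 (adjusted p = 0.000271). Rpl32l, whose symbol has the same final l, was not called, at 0.20 ± 0.0859 (limma adjusted p = 0.118). Rpl3l, Rps27l, Rpl32l, Rps4l and Rps4x were chosen after their values were seen.

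The genes not called were 22, and 12 of these had an unadjusted p under 0.05. Their differences ran from -0.12 to 0.31, and 4 of them had groups without overlap above. Some were uncalled on the brightest probe set only. Probe sets called higher were 8 of 9 for Rpl13, 6 of 9 for Rpl21, 2 of 3 for Rps15, 3 of 7 for Rps28, 2 of 4 for Rpl27 and 1 of 2 for Rps14. For Rpl7a, Rpl28, Rpl36, Rpl41, Rps2, Rps4l, Rps9 and Rps21, which also have several, 0 were called. Rpl14, a dim member with wide groups, read 7.81, 7.99, 7.88, 7.55 and 7.68 against 7.67, 8.43, 8.05, 8.07 and 8.25, so tamoxifen-labelled array 1 fell inside the vehicle-labelled range. Its difference of 0.31 ± 0.113 had an adjusted p of 0.0592. It was called higher in 5 of 20 alternative fits, namely without tamoxifen-labelled array 1 (adjusted p = 0.00524) or vehicle-labelled array 2 (0.0366), with the replicate number as a block (0.0228), with median centring (0.0395) and with the 50% filter (0.0392). Its adjusted p ran from 0.00524 to 0.277 across the alternatives.

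Several of the brightest members were not called. Rpl21 read 13.55, 13.63, 13.71, 13.64 and 13.61 against 13.64, 13.71, 13.79, 13.65 and 13.86, with much overlap and a difference of 0.10 ± 0.0543 (adjusted p = 0.202). That is its brightest probe set. Of all 9 Rpl21 probe sets, with differences of 0.10 to 0.18, 6 were called higher and 3 were not. Read by gene, Rpl21 was called in 1 of 20 alternative fits (adjusted p = 0.0313). Rpl28 read 13.48, 13.43, 13.44, 13.42 and 13.40 against 13.54, 13.60, 13.52, 13.48 and 13.51, touching only at 13.48 (0.096 ± 0.0449, adjusted p = 0.144). It was called in 1 of 20 alternative fits (adjusted p = 0.0192), and 0 of its 5 probe sets were called. Rps2, a protein of the messenger RNA entry channel, read 13.45, 13.44, 13.44, 13.44 and 13.46 against 13.56, 13.54, 13.42, 13.40 and 13.39, so 2 arrays lay above and 3 below (0.016 ± 0.049, adjusted p = 0.858; named after its values were seen). Rpl10, in the same range of signal, differed by 0.28. As a description, the median difference was 0.17 in the 27 members brighter than the median member and 0.20 in the other 27. Of the 726 tested genes brighter than that median, 25.9% were called higher and the median difference was 0.05.

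Rpl36 was the only member with a lower mean in the tamoxifen-labelled arrays. It read 11.78, 11.84, 11.84, 11.80 and 11.80 against 11.69, 11.73, 11.65, 11.70 and 11.71, so every tamoxifen-labelled value was below every vehicle-labelled one. The difference of -0.12 ± 0.0434 was not called (adjusted p = 0.0683). It was called lower in 6 of 20 alternative fits, among them the one without tamoxifen-labelled array 2 (adjusted p = 0.0327) and quantile normalization (0.00511), and its adjusted p ran from 0.00511 to 0.149 across the alternatives. All 9 of its probe sets were lower, by 0.080 to 0.12, and Rpl36 was named after its values were seen.

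**Figure D4:**
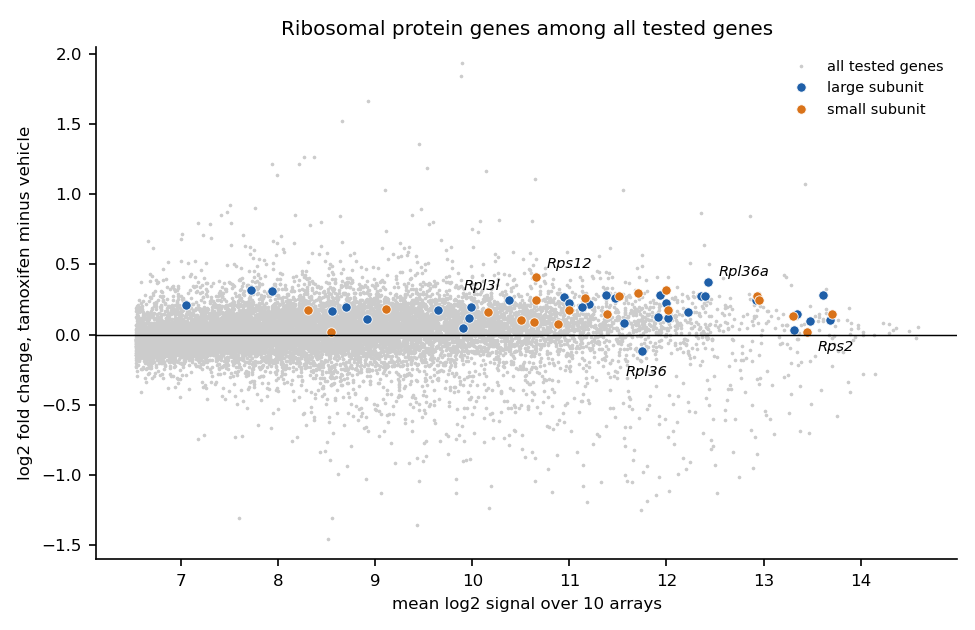
Mean log2 signal over 10 arrays (horizontal axis) and log2 difference, tamoxifen-labelled minus vehicle-labelled (vertical axis), of all 13953 tested genes (grey) and of large (blue) and small (orange) subunit genes. The members span signals from 7.05 to 13.71 and lie in a narrow band from -0.12 to 0.41, inside a cloud that reaches from -1.45 to 1.93.

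Probe sets that carry the same symbol gave nearly the same difference. Of the 55 genes 36 had several probe sets, with up to 14 for Rps12, and 204 of the 205 probe sets were bright enough to be tested. Of these 148 were called higher and 0 lower, against 14.3% and 8.24% of all 15347 tested probe sets with 1 symbol. Within a gene, the differences spanned a median of 0.042 from lowest to highest, and the spread was under 0.1 in 34 of the 36 genes. The 2 exceptions, named after their values were seen, were Rps14 (0.078, not called, and 0.24, called) and Rps4l (-0.094 and 0.018). In 33 genes all probe sets were above 0 and in 1, Rpl36, all were below. The signals were less alike, with up to 3.68 between 2 probe sets of Rpl23, which both differed by 0.22.

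Such likeness cannot count as replication. The 14 probe sets of Rps12 gave 0.33 to 0.42, and 19 member probe sets had exactly the same 10 values as another member probe set, 8 of them in Rps12. RefSeq names 222 pseudogenes after 38 of the 54 tested genes, 23 of them after Rps12 alone, and the files do not say which probe sets lie in a pseudogene copy. Whether a signal comes from the gene or from its pseudogenes could therefore not be told apart. The brightest probe set, from which each gene was read, may itself lie in a pseudogene copy. Genes with a named pseudogene rose in 23 of 38 cases with a median of 0.17, and genes without one in 9 of 16 cases with a median of 0.20. Only pseudogenes whose symbol is that of the gene followed by -ps were counted. Copies under other symbols were missed, and Rps28, with 0 named pseudogenes, has 7 probe sets. The split therefore does not sort genes by pseudogene risk. Counted by probe set rather than by gene, the small subunit stood higher (median 0.23 against 0.18), a count in which Rps12 has 14 of 79 small subunit probe sets. A further 24 of the 79 symbols that follow the rule in RefSeq have no probe set of their own and are not analysed here.

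**Figure D5:**
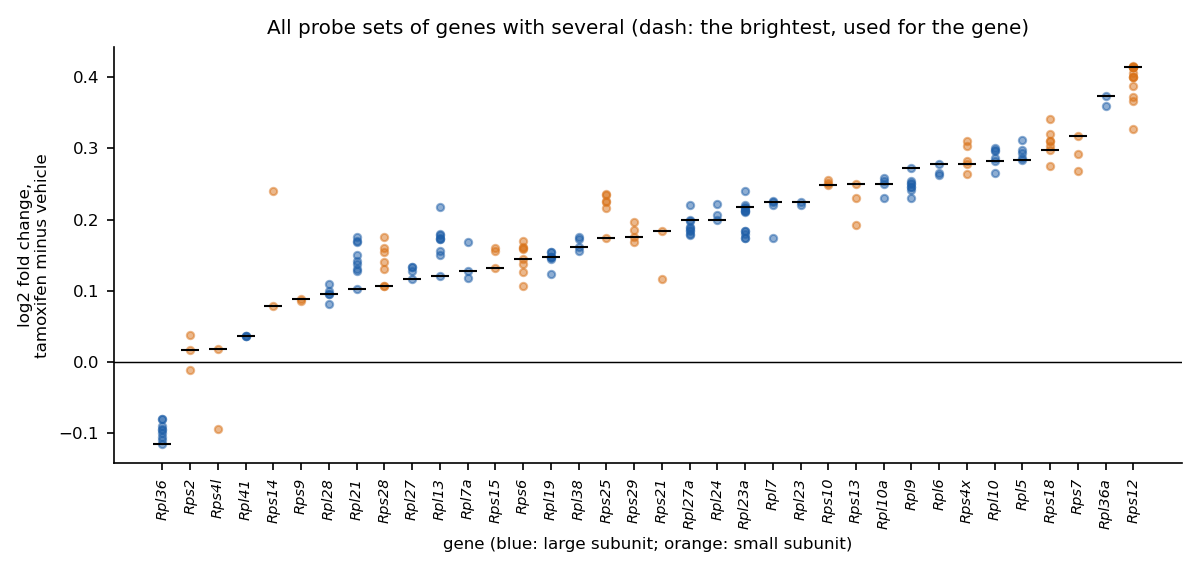
Log2 difference, tamoxifen-labelled minus vehicle-labelled (vertical axis), of every probe set (points) of the 36 genes with several probe sets (horizontal axis, ordered by the difference of the brightest probe set, which a dash marks). Probe sets of a gene lie close together, from 9 probe sets between -0.12 and -0.080 in Rpl36 to 14 between 0.33 and 0.42 in Rps12, and Rps14 has the widest gap.

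Other genes of translation were counted from lists drawn up by function, as background to the family. For comparison, 13.6% of all tested genes were called higher and 8.28% lower. Among 7 ribosomal proteins outside the rule, Fau and Rplp1 rose by 0.16 ± 0.0454 and 0.17 ± 0.0513 and the stalk protein gene Rplp2 fell by 0.16 ± 0.0474 (limma adjusted p = 0.0212, 0.0257 and 0.0266), with a median of 0.052. Single arrays decided all 3 calls: that of Fau was lost without vehicle-labelled array 1 or tamoxifen-labelled array 4, that of Rplp1 without vehicle-labelled array 3 or 5 or tamoxifen-labelled array 1, and that of Rplp2 without vehicle-labelled array 4 or tamoxifen-labelled array 1, 3, 4 or 5. Their adjusted p reached 0.0636, 0.0750 and 0.0669 over all alternatives. Among 14 elongation factors and further genes with TOP messages, 5 rose and 0 fell (median 0.13). The elongation factor gene Eef1a1 rose by 0.35 ± 0.0592 (adjusted p = 0.000407) and the initiation factor 3 subunit genes Eif3f, Eif3h and Eif3e by 0.30, 0.23 and 0.22.

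Of 27 initiation factor genes 10 rose and 1 fell (median 0.13). Eif2s2, a subunit of the factor that brings the initiator tRNA, rose by 0.42 ± 0.0544 (adjusted p = 3.19e-05), and Eif2b4, a subunit of its exchange factor, fell by 0.27 ± 0.0568 (adjusted p = 0.00304). Of 57 ribosome biogenesis genes 24 rose and 0 fell (median 0.14). The nucleolar protein genes Nop16 and Nop58 rose by 0.36 and 0.32, Nhp2, of the pseudouridylating snoRNPs, by 0.37, and the RNA acetyltransferase gene Nat10 by 0.30, with adjusted p from 3.64e-05 to 0.00163. Of 14 RNA polymerase I genes 4 rose and 0 fell (median 0.12), among them the catalytic subunit gene Polr1a by 0.22 and Taf1d by 0.29. In the mTOR, LARP1 and MYC list 1 of 17 rose and 2 fell (median -0.014), beside 13.6% and 8.28% of all tested genes. Larp1, whose protein binds TOP messages, rose by 0.24 ± 0.056 (adjusted p = 0.00539). Its relative Larp4 fell by 0.20 (adjusted p = 0.0159). The mTORC1 subunit gene Rptor fell by 0.17 (adjusted p = 0.0364), a call lost without vehicle-labelled array 1, 2, 3 or 5 or tamoxifen-labelled array 3, 4 or 5 (adjusted p 0.00335 to 0.0946 over all alternatives).

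Genes of the mitochondrial ribosome, a separate machine inside mitochondria, did not share the direction. Of 77 tested Mrpl and Mrps genes 0 rose and 48 fell, beside 13.6% and 8.28% of all tested genes. Their median was -0.22, beside the median of 0.19 for the cytosolic ribosome. The 2 ribosomes are named by different symbols and share no member here.

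Marker genes of several other cell types were also higher. The shares called over all tested genes, 13.6% higher and 8.28% lower, are the background to these counts. For macrophages, 6 of 9 markers rose, and their summed linear signal ran from 5527 to 6341 in the vehicle-labelled and from 6498 to 7874 in the tamoxifen-labelled arrays. Of 7 fibroblast markers 4 rose, with sums of 15463 to 16097 and 17139 to 18435, and of 4 smooth muscle markers 2 rose (8137 to 8905 and 8336 to 10819). Endothelial markers gave 0 calls of 5 (10828 to 11811 and 10817 to 11790), and cardiomyocyte markers 0 higher and 1 lower (Ryr2) of 7. Of 4 atrial markers only Nppa rose, by 0.42. Sln, Myl4 and Myl7 had lower means (-0.30, -0.17 and -0.20) and were not called. The atrial sums, in which Nppa is the brightest gene, were 11944 to 13789 and 12800 to 19074. Of 2 erythroid markers 0 were called (474 to 643 and 524 to 720). Of 5 measured lymphocyte markers only Ptprc, which all leukocytes carry, and Cd3e were above the cutoff, while Cd3d, Cd79a and Ms4a1 were below it, and Ptprc rose by 0.31 (sums 485 to 533 and 510 to 626). The values come without a detection call, so a signal alone does not show that a cell type was present. The part of these cells in the ribosomal protein values was not tested. In RNA from whole ventricle, more cells of a type and more RNA per cell cannot be told apart.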

How the data were processed

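The authors deposited log2 signals, 1 per probe set and array. Per the submitters' processing notes, these are RMA values from Affymetrix Expression Console 1.1, an algorithm that removes background, makes the arrays alike in distribution and condenses probes into probe sets. No genome build for the probe sets was used here, and the values come without a detection call. Symbols came from the platform annotation: 21789 of 35556 probe sets had 1 symbol, 1621 several and 12146 none, and all 55 member symbols matched RefSeq. Each gene was read from its brightest probe set, and the dimmest 30% of genes by mean signal over all arrays (cutoff 6.53) were left out. Since that mean covers both groups, a gene could pass through 1 group alone. The groups were compared with limma 3.58.1 in R 4.3.3 (a two-sided moderated test from lmFit with eBayes, without covariates), with Benjamini-Hochberg adjustment over all 13953 genes and a threshold of 0.05. A second fit kept every probe set with 1 symbol. Precision is limited by the 5 arrays per group, and the median residual SD was 0.0943. The code was tested on simulated data. RMA signals of bright probe sets can be compressed, which lowers their fold changes.

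The members and lists were chosen with earlier results of these data known. Genes were named by a rule: the 8 largest rises and falls past the threshold, the 4 brightest and 4 dimmest members, paralogue pairs in the family, genes whose probe sets differed by over 0.3 (there were 0), and up to 4 genes with the smallest p per list. All other members named were chosen after their values were seen. The alternatives comprised a block for the replicate number, another prior, array weights, 2 normalizations, 2 filters, 2 choices of probe set, each array left out and 2 arrays left out together. Plots and promoter searches used Python 3.11.15 with matplotlib 3.10.9.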

Additional observations from a re-analysis of the deposited data

Results flagged for a closer look

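The check for arrays far from the rest of their group covered 47 genes and means in both groups, and not every tested member of the family. Among those checked, no member of the ribosomal protein family and no family mean had such an array. Such a gap arises by chance in about 1 in 20 groups of 5. It was found in 5 of the 94 groups checked, all in genes around the family. Rplp2 read 7.71 in vehicle-labelled array 4, with the next value at 7.64, and 7.60 in tamoxifen-labelled array 2, with the next at 7.49. Fau read 12.18 in vehicle-labelled array 1, below the next value of 12.26. Eif3f read 12.56 in tamoxifen-labelled array 2, above 12.40, and Eif3c read 10.98 in vehicle-labelled array 4, below 11.04. Members outside the check were not free of such gaps. For instance, Rps25 read 11.78 in vehicle-labelled array 1, below the next value of 11.96, and Rps15a read 8.60 in tamoxifen-labelled array 2, above 8.39.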

How the results depend on the processing

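The count of ribosomal protein genes called higher was 32 and ranged from 26 to 39 over 10 alternatives and from 26 to 32 with each array left out (26 without vehicle-labelled array 1 or 3). With the replicate number as a block it was 35. Arrays of the same number had correlated deviations of 0.0377 to 0.204, over 0.1 in 3 of 5 pairs, and 4 of 5 vehicle-labelled arrays correlated best with their own number. This is a hint of pairing from the data, but the labels do not say what the numbers share and not every pair was over 0.1, so the block was kept as an alternative. Genes called lower were 0, but 1 with another prior, array weights, quantile normalization, the 50% filter or vehicle-labelled array 4 and tamoxifen-labelled array 2 left out together, and 0 to 1 with each array left out (1 without tamoxifen-labelled array 2; it was Rpl36 each time). Among the 16 genes without a named pseudogene 9 were called higher, from fewer genes tested and in a split that does not sort genes by pseudogene risk. Probe sets called higher were 148 (120 to 153, and 113 to 144 with each array left out), and those called lower were 0, but 8 after quantile normalization and 0 to 3 with each array left out (3 without tamoxifen-labelled array 2). The large minus small median was 0.026 (0.026 to 0.046, and 0.014 to 0.04 with each array left out). Of the other genes of translation 46 were higher (33 to 59, and 32 to 49 with each array left out) and 4 lower, but 2 without the filter and 2 to 5 with each array left out (2 without tamoxifen-labelled array 3, 4 or 5). The causes were not tested. Over all genes, 1155 were lower, but 1784 with array weights. Higher genes made up 62.2% of all calls and 49.6% without tamoxifen-labelled array 2.  Among tested members the SE was widest for Rpl34 (0.131), Rpl14 (0.113) and Rpl10l (0.104).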

Other observations

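Probe sets annotated with several symbols were kept out of all counts above. Of these, 231 had a symbol that follows the rule for cytosolic ribosomal proteins among their symbols, and all 231 were brighter than the cutoff. The log2 difference was above 0 in 227 of them, with a median of 0.19 and a range of -0.24 to 0.49. They are given as values only, since such a probe set names no single gene.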
